A study of Mus musculus with 6 samples.

Results

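The genes described here are 10 genes of ERBB receptor signalling in mouse mammary carcinoma cells: the receptors Egfr, Erbb2 and Erbb3, the ligands Areg, Ereg, Hbegf, Tgfa, Btc and Nrg1, and Errfi1, which encodes an inhibitor of the receptors. They were chosen by name, as drivers of mammary epithelial growth and a brake on it, and each was taken from the row of its symbol with the highest mean. Earlier results of these data were known when they were chosen. All 10 were found among the 43548 gene identifiers measured. Receptors and ligands of the same families outside the 10 (Erbb4, Egf, Epgn, Nrg2, Nrg3 and Nrg4) are given beside them.

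mRNA was sequenced from Met-1 TripZ-200c cells in 6 libraries, 3 without doxycycline (MinusDox) and 3 with it (PlusDox). Met-1 is a line from a late-stage mammary tumour of an MMTV-PyMT mouse, in which polyoma middle T antigen is expressed from a mammary tumour virus promoter, and the labels give its strain as FVB/nJ. TripZ-200c cells carry the lentiviral vector pTripZ-RFP, which makes the precursor of miR-200c together with a red fluorescent protein when doxycycline (Dox) is present. PlusDox cells received 1 µg/mL Dox for 48 h, and MinusDox cells were the same cells given its vehicle, water, for 48 h. All libraries come from a single clone, selected by sorting for cells that were not red without Dox and moderately red with it. Cells with the empty vector were not analysed here, so in these libraries an effect of Dox itself and one of miR-200c cannot be told apart. The paper did treat empty-vector cells with Dox and reports no significant fall of Zeb1 mRNA in them. By western blot it reports changes of ZEB1 and CDH1 only in TripZ-200c cells. For sequencing it names TripZ-200c cells alone. The labels name DMEM for growth and RPMI for the treatment. The series record and the paper's text and methods give 48 h, and the record gives cells plated in triplicate, while 1 figure legend of the paper ties the sequenced samples to a repeated experiment with 72 h of Dox. If the record holds, the p-values measure the spread between parallel cultures of 1 clone.

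ERBB receptors are tyrosine kinases of the cell surface that bind ligands of the EGF family, pair with each other and signal through the RAS-MAPK and PI3K-AKT pathways. EGFR binds EGF, TGF-alpha, amphiregulin, betacellulin, HB-EGF, epiregulin and epigen. ERBB3 and ERBB4 bind neuregulins, and EGFR ligands such as betacellulin can also bind ERBB4. ERBB2 has no known ligand of its own and is the preferred partner of the others, and ERBB3 has little kinase activity and couples strongly to PI3K. The ligands are made as membrane-bound precursors and are released by ADAM proteases. In the mammary gland amphiregulin is needed for the growth of ducts at puberty, and ERBB2 is amplified in a subset of breast cancers.

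Values are FPKM, the fragments on a gene scaled by the length of its transcript and by the mapped reads of its library, so that the levels of different genes can be set side by side. The files give no read counts, and read numbers below are estimates that rest on annotated lengths. From the steps between the lowest values, which follow the worth of 1 read, the libraries were estimated at 12.8, 11.7 and 16.6 M reads (M, 1e6 reads) without Dox (replicates 1, 2 and 3) and 12.5, 19 and 14.3 M reads with Dox. The worth of 1 read was set from low values of genes with 1 annotated transcript. Of those same values 756 to 1165 per library were then scored, and 90.9% to 96.4% lay within 0.1 of a whole number of reads. This share is therefore not an independent check. Values of replicates are given below in the order 1, 2, 3.

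The state of the cells was checked first on Zeb1 and Zeb2, repressors of epithelial genes and known targets of miR-200c. The gene of miR-200c itself, Mir200c, was listed at 0 in all 6 libraries, which were made for mRNA. Zeb1 was at 41.0, 42.1 and 42.3 FPKM in the MinusDox libraries, against 19.8, 20.3 and 23.6 FPKM in the PlusDox libraries. Zeb2 was at 29.4, 30.7 and 27.9 FPKM in the MinusDox libraries, against 9.04, 7.82 and 8.0 FPKM in the PlusDox libraries. Both were lower in every PlusDox library than in every MinusDox library (adjusted p from limma 3.6e-04 and 4.5e-05). Among the luminal epithelial markers, 4 of 7 rose (Krt18, Epcam, Cdh1 and Cldn3). Of all genes tested (1 FPKM or more on average), 7.06% rose. Cdh1 was below 1 FPKM and was called in the fit on all genes above 0, where 3.81% rose. Of the 7 luminal markers, Krt19 was listed at 0. The summed level of these 7 genes was 205, 200 and 204 FPKM in the MinusDox libraries, against 487, 523 and 528 FPKM in the PlusDox libraries, and the most abundant of them was Cldn3 without Dox and Krt18 with Dox. Krt8 shares 48.1% of its longest transcript with a pseudogene, and its value is uncertain.

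Of 5 mesenchymal markers Vim, Zeb1 and Zeb2 fell (7.97% of all genes tested fell), and Cdh2 and Fn1 were not called. Their summed level without Fn1, which lacked a value in some libraries, was 4229, 4167 and 4016 FPKM in the MinusDox libraries, against 3212, 3327 and 3162 FPKM in the PlusDox libraries, most of it from Vim. Of the fibroblast markers 2 of 4 fell (Pdgfra and Pdgfrb, the 2 at 1 FPKM or more), against 7.97% of all genes tested. The 4 markers summed to 50.4, 52.0 and 52.7 FPKM in the MinusDox libraries, against 32.3, 31.8 and 29.9 FPKM in the PlusDox libraries. Pdgfrb was the most abundant of these without Dox, Pdgfra and Pdgfrb were at like levels with Dox, and Lum was listed at 0. Of 5 basal, 4 immune and 3 endothelial markers, 0 passed in limma (0 at an unadjusted p under 0.05). Basal markers summed to between 1.40 and 2.12 FPKM in the 6 libraries, mostly from Trp63, with Krt5 and Acta2 listed at 0. Immune markers summed to 11.3, 9.97 and 6.34 FPKM in MinusDox and to 6.70, 7.02 and 7.57 FPKM in PlusDox libraries, mostly from Cd68, with Cd3e listed at 0 and Adgre1 not in the table. Endothelial markers summed to between 4.19 and 5.12 FPKM, mostly from Cdh5. The adipocyte markers Adipoq and Plin1 were listed at 0. The part of these shifts in the results below was not tested. In RNA from whole cultures, fewer cells of a kind and less RNA per cell cannot be told apart.

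For the test, genes averaging 1 FPKM or more across the libraries were compared by limma on log2(FPKM + 0.1), with p-values adjusted over all 12879 such genes and a threshold of 0.05. Genes below 1 FPKM were taken from the same model over all 20513 genes above 0 in at least 1 library. Of the 8 members at 1 FPKM or more, 4 passed, 0 of them higher in limma (1 at an unadjusted p under 0.05, Tgfa) and 4 lower with Dox (Errfi1, Areg, Hbegf and Btc). Of all genes tested, 15.0% passed in either direction, 7.06% higher and 7.97% lower. The same 4 members, out of 8, were those whose MinusDox and PlusDox values did not overlap, against 35.0% of all genes tested. Of the 2 members below 1 FPKM, Erbb3 rose and Ereg did not pass, where 7.84% of all genes in that fit passed and 3.81% passed as higher. The median log2 fold change of the 8 members was -0.07, beside 0.004 over all genes tested.

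**Figure D1:**
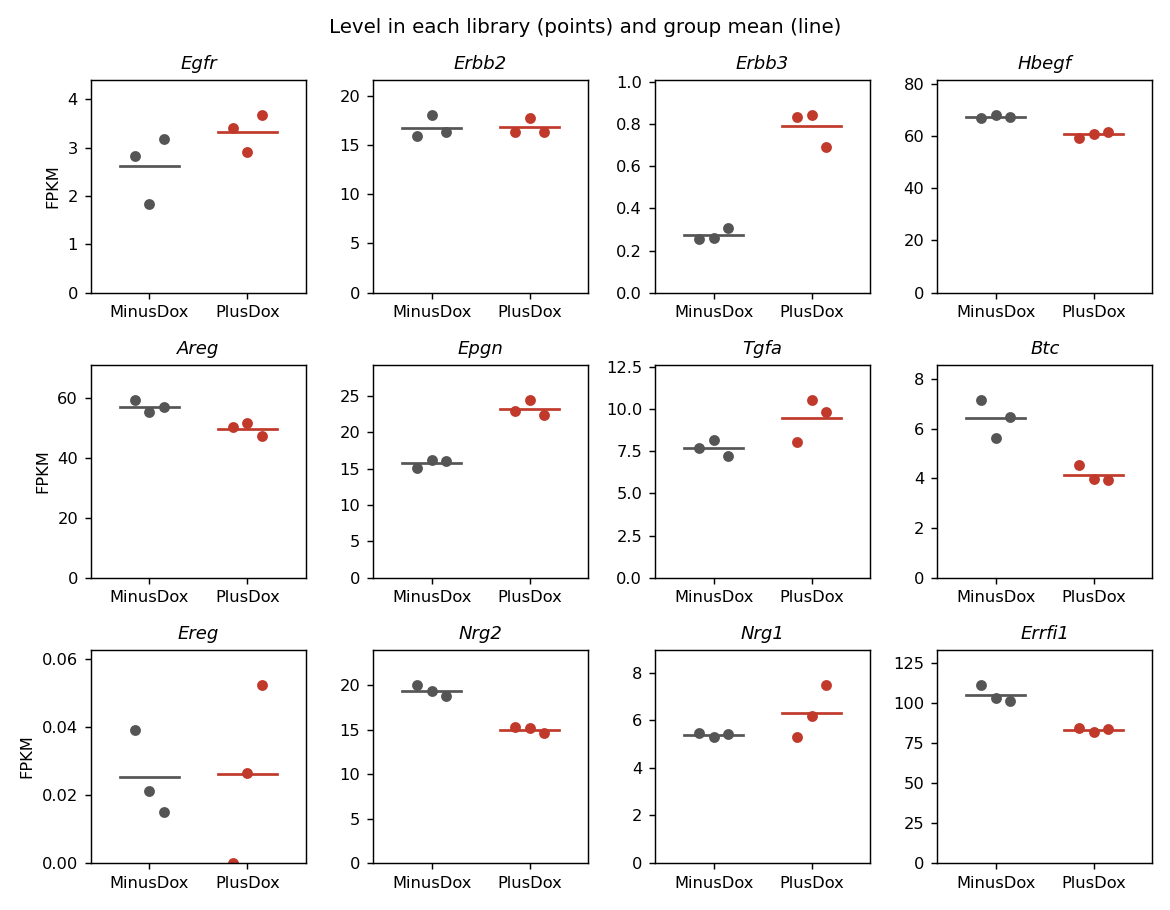
FPKM (y axes, each from 0) of 12 genes in the 3 MinusDox and 3 PlusDox libraries: points are libraries and lines are group means. Erbb3 and Epgn lie higher in all PlusDox libraries, Errfi1, Areg, Hbegf, Btc and Nrg2 lie lower, and the other 5 genes overlap between the groups.

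Among the receptors, Erbb2 was by far the most abundant and was not called, Egfr came next, and Erbb3 was low but rose with Dox. Erbb2 (ENSMUSG00000062312) lies on the plus strand of GRCm38 at chr11:98412470-98437716. Its level was 15.9, 18.0 and 16.3 FPKM in the MinusDox libraries, against 16.3, 17.7 and 16.3 FPKM in the PlusDox libraries. The PlusDox libraries all lay within the MinusDox range. The log2 fold change was 0.01, with a 95% interval from -0.17 to 0.18 (adjusted p = 0.97, limma). The sign of this value changed in 3 of 15 alternative settings. Erbb2 shares 9 exon bases with Mien1, a gene on the other strand.

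Egfr (ENSMUSG00000020122, plus strand, chr11:16752203-16918158) encodes the receptor of most ligands described here. It was at 2.82, 1.83 and 3.18 FPKM in the MinusDox libraries, against 3.40, 2.90 and 3.67 FPKM in the PlusDox libraries. The highest MinusDox library lay above the lowest PlusDox library, and MinusDox replicate 2 was the lowest of the 6. The log2 fold change of 0.37 had a 95% interval from -0.19 to 0.92 and did not pass (adjusted p = 0.36, limma). A change of more than 1.5-fold upwards is inside that interval, so the data do not settle whether Egfr moved. Without MinusDox replicate 2 the log2 fold change was 0.14, and without MinusDox replicate 3 it was 0.52, the lowest and highest with 1 library left out.

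Erbb3 (ENSMUSG00000018166, minus strand, chr10:128567523-128589652) encodes the neuregulin receptor that pairs with ERBB2. It was at 0.253, 0.261 and 0.306 FPKM in the MinusDox libraries, against 0.836, 0.843 and 0.693 FPKM in the PlusDox libraries. All PlusDox libraries lay above all MinusDox libraries, and the mean was 2.89 times as high with Dox. With the length of its longest coding transcript, these levels stand for about 19, 18 and 30 reads without Dox and 61, 93 and 58 reads with Dox. The log2 fold change was 1.25 (SE 0.27, adjusted p = 0.045, limma on all genes above 0), and since the pseudocount is near the level of the gene it understates the change. The call lay close to the threshold and was lost when any 1 of the 6 libraries was left out, with adjusted p-values from 0.064 to 0.087 and log2 fold changes from 1.21 to 1.33. The call was also lost with a pseudocount of 0.01 (adjusted p = 0.072) and under quantile normalization (0.051), and with a pseudocount of 1 the log2 fold change was 0.49 (0.011), while over all 15 alternatives the adjusted p ranged from 0.0090 to 0.15.

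Erbb4, the other neuregulin receptor, was listed at 0 in all 6 libraries. In the summed FPKM of the receptors, Erbb2 held 83.8%, 89.6% and 82.4% without Dox and 79.4%, 82.5% and 78.9% with Dox. Erbb3 held 1.33%, 1.30% and 1.54% without Dox and 4.06%, 3.94% and 3.35% with Dox. The order of levels, Erbb2 above Egfr above Erbb3, was the same in all 6 libraries, with no overlap between neighbours in either group.

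**Figure D2:**
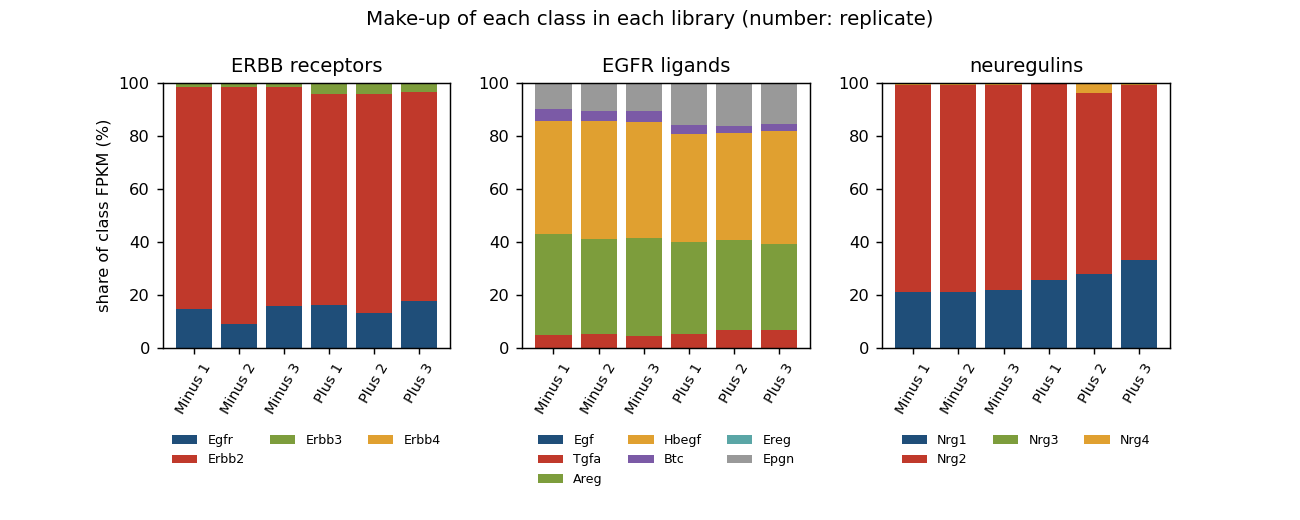
Share of each gene (y axis, percent) in the summed FPKM of its class, 1 bar per library, for ERBB receptors, EGFR ligands and neuregulins. Erbb2, the pair Hbegf and Areg, and Nrg2 hold most of their classes in every library, and Epgn takes a larger share of the EGFR ligands in all 3 PlusDox libraries.

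Among the EGFR ligands, Hbegf and Areg were the most abundant and both fell slightly with Dox, Btc fell more, Epgn rose, and Tgfa was not called. Hbegf (ENSMUSG00000024486), which encodes a heparin-binding ligand, was at 66.7, 67.9 and 67.4 FPKM in the MinusDox libraries, against 59.3, 60.9 and 61.5 FPKM in the PlusDox libraries. The groups did not overlap, and the PlusDox mean was 0.899 of the MinusDox mean. Hbegf had a log2 fold change of -0.15 (SE 0.04, adjusted p = 0.034, limma). Areg (ENSMUSG00000029378, plus strand, chr5:91139599-91148432), which encodes amphiregulin, was at 59.1, 55.1 and 56.9 FPKM in the MinusDox libraries, against 50.1, 51.5 and 47.3 FPKM in the PlusDox libraries. Every PlusDox library lay below every MinusDox library, and the ratio of the means was 0.870. Its log2 fold change was -0.20 (SE 0.05, adjusted p = 0.039, limma). For both Hbegf and Areg the call was lost when any 1 library was left out, with adjusted p-values from 0.069 to 0.095 for Hbegf and from 0.059 to 0.12 for Areg, while the log2 fold changes were between -0.16 and -0.14 and between -0.23 and -0.17. The call was also lost without limma's trend for both, and for Areg without the filter and in an unmoderated model.

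Btc (ENSMUSG00000082361, minus strand, chr5:91357261-91402994) encodes betacellulin, which also binds ERBB4. Its level was 7.14, 5.64 and 6.45 FPKM in the MinusDox libraries, against 4.52, 3.97 and 3.94 FPKM in the PlusDox libraries. The groups did not overlap, and the mean with Dox was 0.646 of that without. Btc had the lowest log2 fold change of the 10 members, -0.61 (SE 0.13, adjusted p = 0.022, limma). The call was lost without MinusDox replicate 1 or 3 and without PlusDox replicate 2 or 3, and the adjusted p ranged from 0.030 to 0.078 over the 6 libraries left out in turn. It was lost in the unmoderated model as well.

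Tgfa (ENSMUSG00000029999), which encodes TGF-alpha, was at 7.66, 8.18 and 7.23 FPKM in the MinusDox libraries, against 8.03, 10.5 and 9.80 FPKM in the PlusDox libraries. PlusDox replicate 1 lay within the MinusDox range and the other PlusDox libraries above it. The log2 fold change of 0.29 (SE 0.12) did not pass (adjusted p = 0.17, limma).

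Epgn (ENSMUSG00000035020, plus strand, chr5:91027464-91035215), outside the 10 genes, encodes epigen. It was at 15.1, 16.2 and 16.1 FPKM in the MinusDox libraries, against 23.0, 24.4 and 22.4 FPKM in the PlusDox libraries. It was higher in all PlusDox libraries than in all MinusDox libraries, 1.47-fold by the means, and it was the only one of the 7 EGFR ligands that rose. Epgn had a log2 fold change of 0.55 (SE 0.06, adjusted p = 0.0018, limma), and it passed in all 15 alternatives. Ereg, which encodes epiregulin, was near 0 throughout, at 0.0393, 0.0213 and 0.0150 FPKM in the MinusDox libraries, against 0, 0.0264 and 0.0523 FPKM in the PlusDox libraries, or about 0 to 3 reads per library. With so few reads, the data do not settle whether Ereg fell or rose slightly. Egf was also low, between 0.0875 and 0.259 FPKM, with overlapping groups (adjusted p = 0.75, limma on all genes above 0), and shares 12.8% of its longest transcript with an antisense gene.

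The summed level of the EGFR ligands was 155 ± 1.41 FPKM without Dox and 147 ± 3.64 FPKM with Dox (SD, n = 3 each). Hbegf held 42.8%, 44.3% and 43.7% of it without Dox and 40.9%, 40.2% and 42.3% with Dox, and Areg held 37.9%, 36.0% and 36.9%, then 34.5%, 34.0% and 32.6%. Epgn held 9.68%, 10.6% and 10.4% without Dox and 15.8%, 16.1% and 15.4% with Dox. The order of the group means was Hbegf, Areg, Epgn, Tgfa, Btc, Egf, Ereg in both groups, and neighbours in this order did not overlap within a group. Tgfa and Btc, close to each other without Dox (7.69 and 6.41 FPKM on average), lay further apart with Dox (9.44 and 4.14 FPKM).

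Epgn, Ereg, Areg and Btc are neighbours on chromosome 5, where they are the 4 protein-coding genes annotated within 376 kb. In that span Epgn rose, Areg and Btc fell, and Ereg, which lies between Epgn and Areg, stayed near 0. The genes of this cluster therefore did not move together. Ereg shares 141 exon bases with an antisense gene, and whether the counting used strand is not given in the sources used here. Outside the cluster, Tgfa shares 118 exon bases with a gene annotated on the other strand.

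**Figure D3:**
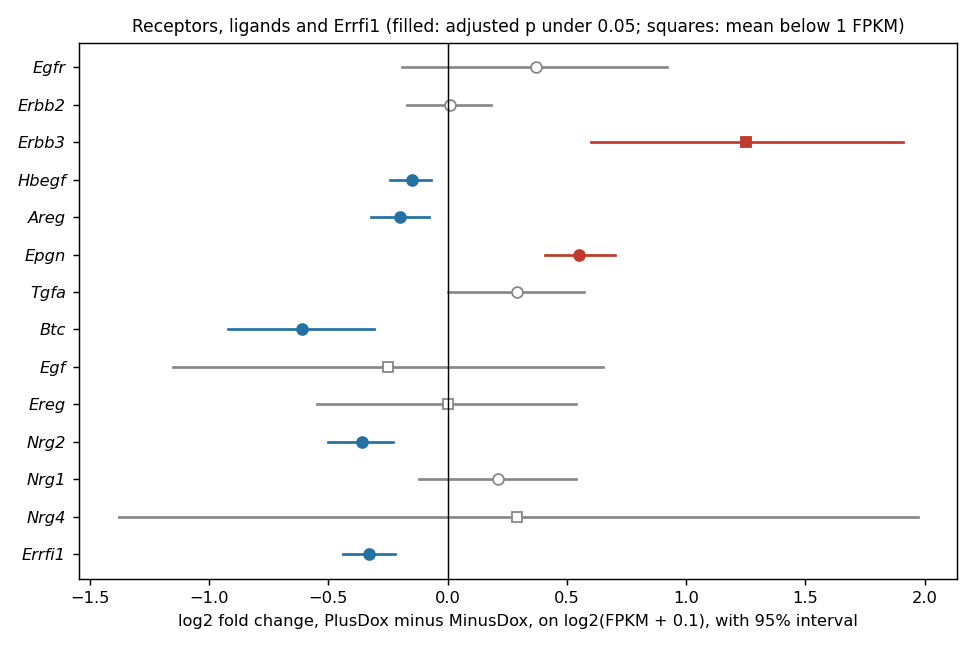
Log2 fold change, PlusDox minus MinusDox, on log2(FPKM + 0.1) (x axis) with its 95% interval for receptors, ligands and Errfi1; filled symbols passed the threshold and squares mark genes with a mean below 1 FPKM. Erbb3 and Epgn lie above 0, Hbegf, Areg, Btc, Nrg2 and Errfi1 below it, and Erbb3, Egf and Nrg4, all low, have wide intervals.

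Of the neuregulins, Nrg2 was the most abundant and fell, and Nrg1 was not called. Nrg1 (ENSMUSG00000062991, minus strand, chr8:31814551-32884029), a ligand of ERBB3 and ERBB4, was at 5.48, 5.31 and 5.42 FPKM in the MinusDox libraries, against 5.32, 6.20 and 7.47 FPKM in the PlusDox libraries. The MinusDox libraries were close to each other, while 1 PlusDox library lay within their range and the others above it. Its log2 fold change of 0.21 (95% interval -0.12 to 0.54, adjusted p = 0.37, limma) did not pass, and was 0.09 without PlusDox replicate 3 and 0.33 without PlusDox replicate 1. Nrg1 shares 482 exon bases with a noncoding gene on the other strand, which averaged 0.541 FPKM.

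Nrg2 (ENSMUSG00000060275), outside the 10 genes, was at 20.0, 19.4 and 18.8 FPKM in the MinusDox libraries, against 15.3, 15.2 and 14.6 FPKM in the PlusDox libraries. The groups did not overlap. Nrg2 had a log2 fold change of -0.36 (SE 0.06, adjusted p = 0.0080, limma), and it passed in all 15 alternatives. Nrg3 was listed at 0 in all libraries. Nrg4 was at 0.186, 0.135 and 0.197 FPKM in the MinusDox libraries, against 0.0479, 0.852 and 0.160 FPKM in the PlusDox libraries. PlusDox replicate 2 alone was high, and the gene overlaps the exons of Fbxo22, a more abundant gene on the other strand, by 368 bases. The share of Nrg1 in the summed neuregulin FPKM was 21.3%, 21.4% and 22.2% without Dox and 25.7%, 27.9% and 33.5% with Dox, and the sum itself was 25.0 ± 0.645 FPKM and 21.7 ± 0.887 FPKM (SD, n = 3 each).

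Errfi1 (ENSMUSG00000028967, plus strand, chr4:150853919-150868892) encodes MIG6, a cytoplasmic protein that binds the kinase domain of EGFR and its relatives and blocks it, and that is itself induced by EGFR signalling. It was at 111, 103 and 101 FPKM in the MinusDox libraries, against 84.4, 82.1 and 83.5 FPKM in the PlusDox libraries, the highest level of the 10 members in every library. Every PlusDox library lay below every MinusDox library, and the mean with Dox was 0.794 of that without. The log2 fold change was -0.33 (SE 0.05, adjusted p = 0.0046, limma). Of the 5 members that passed, it had the largest absolute moderated statistic, and it was the only one that passed in all 15 alternatives, with adjusted p-values from 0.0037 to 0.043.

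The genes most like Errfi1 over the 6 libraries, by the mean absolute difference of the deviations of log2(FPKM + 0.1) from each gene's mean, were Aebp1, Zbtb20, 6330403L08Rik, Clu and Dapk1, out of 12874 genes. The difference was 0.015 for Aebp1 and 0.022 for Dapk1. Clu, the most abundant of them, was at 381, 363 and 366 FPKM in the MinusDox libraries, against 299, 289 and 291 FPKM in the PlusDox libraries. With 6 libraries in 2 groups, this likeness is mostly that of the difference between the groups.

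Sequences that match the seed of miR-200c, the miRNA made by the vector, are shown because they mark which members carry the letters that such a miRNA can pair with. Mature sequences are from RefSeq (GRCm38.p6), 5′ to 3′, with the seed (bases 2 to 8) in capitals. miR-200c (minus strand, chr6:124718324-124718346) shares its seed with miR-200b and miR-429.
miR-200c-3p: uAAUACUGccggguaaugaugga
miR-200b-3p: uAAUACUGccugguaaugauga
miR-429-3p: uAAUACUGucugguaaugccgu

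The complement of that seed, CAGTATT, was searched on the sense strand of the longest annotated 3′ UTR of each coding gene (GENCODE M21, GRCm38). It was present in 4 of the 10 members, Egfr, Errfi1, Btc and Nrg1, and in 16.1% of the 10798 genes tested that have an annotated 3′ UTR. The 10 members include Erbb3 and Ereg, which held no match and, being below 1 FPKM, are not among the genes tested. The median 3′ UTR was 1957 bases in the members and 1201 bases in the genes tested, and a longer UTR has more room for a match. Of the genes tested that fell, 31.1% held a match, and of those that rose, 8.52%. Their median 3′ UTRs were 1319.5 bases (fell) and 1112 bases (rose), and the part of length in this difference was not tested. The matches are printed with 10 bases before and 5 after, the match in capitals.
Errfi1, chr4:150868422-150868428: ggttcctattCAGTATTtcctg
Errfi1, chr4:150868793-150868799: actgtgtgtaCAGTATTggaca
Btc, chr5:91358077-91358083: ttcatttggtCAGTATTctata
Egfr, chr11:16912629-16912635: acaaaaaaccCAGTATTaagta
Egfr, chr11:16912688-16912694: ttcaaaccatCAGTATTgtgac
Nrg1, chr8:31817836-31817842: caattttttaCAGTATTtcaaa
Nrg1, chr8:31817741-31817747: tgctttttcaCAGTATTtcagc

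The members that carry a match did not move alike: Errfi1 and Btc fell, and Egfr and Nrg1 were not called, at log2 fold changes of 0.37 and 0.21. Areg and Hbegf fell with no match in their 3′ UTRs of 253 and 1456 bases, and so did Nrg2 with 262 bases. These are reference sequences, and differences of the FVB/nJ strain were not examined. A match is a description of the letters and not a measured site.

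E-boxes of the form CACCTG or its complement CAGGTG, letters that ZEB proteins are known to bind, were searched in promoters from 250 bases before to 50 bases after the start (RefSeq, GRCm38.p6). Promoters of 11 of the 16 genes made up of Errfi1 and the receptor, EGFR ligand and neuregulin families were in the table, and 4 of the 11, Areg, Btc, Tgfa and Epgn, held 1 match each. Over all 32851 promoter windows of the table, counted singly although a gene can have more than 1 window, 20.2% held at least 1. The windows are shown because these 4 ligands differ in direction, with the match in capitals and its first base given relative to the start.
Areg, plus strand, -20, chr5:91139567-91139596: ctataaaagcagCAGGTGctcgccgcaccc
Btc, minus strand, -110, chr5:91403087-91403116: gaaatgaaccgtCAGGTGagacccagcagg
Tgfa, plus strand, -197, chr6:86195013-86195042: aagcccctagcaCAGGTGactggatcctga
Epgn, plus strand, -245, chr5:91027267-91027289: gcccaCAGGTGacaggaaacctg

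Of these, Epgn rose, Areg and Btc fell, and Tgfa was not called. Promoters of Egfr, Erbb2, Erbb4, Errfi1, Egf, Nrg3 and Nrg4 held no match in their windows, which says nothing of other sequence. Erbb3, Ereg, Hbegf, Nrg1 and Nrg2 had no entry.

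Beyond the receptors and ligands, 20 genes of receptor inhibition and turnover were examined, Errfi1 included. Of the 19 at 1 FPKM or more, 1 rose and 5 fell, with a median log2 fold change of -0.06. Over all genes tested, 7.06% rose and 7.97% fell, and the median was 0.004. Lrig1, a transmembrane inhibitor that promotes the degradation of ERBB receptors, fell from 112, 115 and 115 FPKM to 79.0, 80.2 and 74.4 FPKM. No PlusDox library reached the MinusDox range, and the log2 fold change was -0.55 (SE 0.04, adjusted p = 3.5e-04, limma). Sh3kbp1, an adaptor that links CBL to receptor endocytosis, fell from 64.1, 55.4 and 62.3 FPKM to 43.9, 42.6 and 42.3 FPKM (log2 fold change -0.49, adjusted p = 0.0029, limma).

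The ubiquitin ligase gene Cblb fell as well (-0.28, adjusted p = 0.038, limma), and so did the endocytosis gene Sh3gl1 (-0.16, adjusted p = 0.041, limma), which was named after its values were seen. Both calls were lost when any 1 library was left out, with adjusted p-values up to 0.12 and 0.13, and in the unmoderated model, Cblb also without the filter and Sh3gl1 without the trend. Cbl itself was not called and had means of 17.0 and 16.9 FPKM. Its relative Cblc, found mainly in epithelia, was listed at 0 in all MinusDox libraries and was at 0.556, 0.704 and 1.24 FPKM with Dox (adjusted p = 0.0048, limma on all genes above 0), or about 10, 20 and 26 reads. It was not called in the unmoderated model (adjusted p = 0.079, from 0.0030 to 0.079 over the alternatives). Ptpn2, a phosphatase that acts on EGFR, rose from 104, 101 and 106 FPKM to 126, 126 and 122 FPKM (log2 fold change 0.26, adjusted p = 0.0041, limma).

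Among 11 genes of ligand shedding, 10 were at 1 FPKM or more, of which 1 rose and 2 fell (7.06% and 7.97% of all genes tested), with a median log2 fold change of -0.03 (0.004 over all genes tested). Rhbdf2 encodes iRhom2, which carries the sheddase ADAM17 to the cell surface, and was at 13.2, 13.9 and 13.5 FPKM in the MinusDox libraries, against 25.7, 27.9 and 26.8 FPKM in the PlusDox libraries. The groups were far apart, with a log2 fold change of 0.98 (SE 0.06, adjusted p = 1.5e-04, limma). Its relative Rhbdf1 fell, from 53.9 ± 4.64 to 43.3 ± 2.55 FPKM (SD, n = 3 each; log2 fold change -0.31, adjusted p = 0.033, limma). Adam17 itself was at 33.4 ± 0.233 FPKM and 32.9 ± 0.456 FPKM (SD, n = 3 each) and was not called, with a 95% interval of the log2 fold change from -0.12 to 0.08. Adam15 fell (-0.19, adjusted p = 0.034, limma), and 18.9% of its longest transcript is shared with another annotated gene. When libraries were left out singly, the Adam15 call was kept only without MinusDox replicate 3 (adjusted p up to 0.099 without the others), and the Rhbdf1 call only without MinusDox replicate 1 (up to 0.11). Both were also lost without the filter, without the trend and in the unmoderated model. Adam10, the main sheddase of EGF and betacellulin, was at 103 ± 6.45 FPKM and 98.4 ± 1.77 FPKM (SD, n = 3 each) and was not called.

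**Figure D4:**
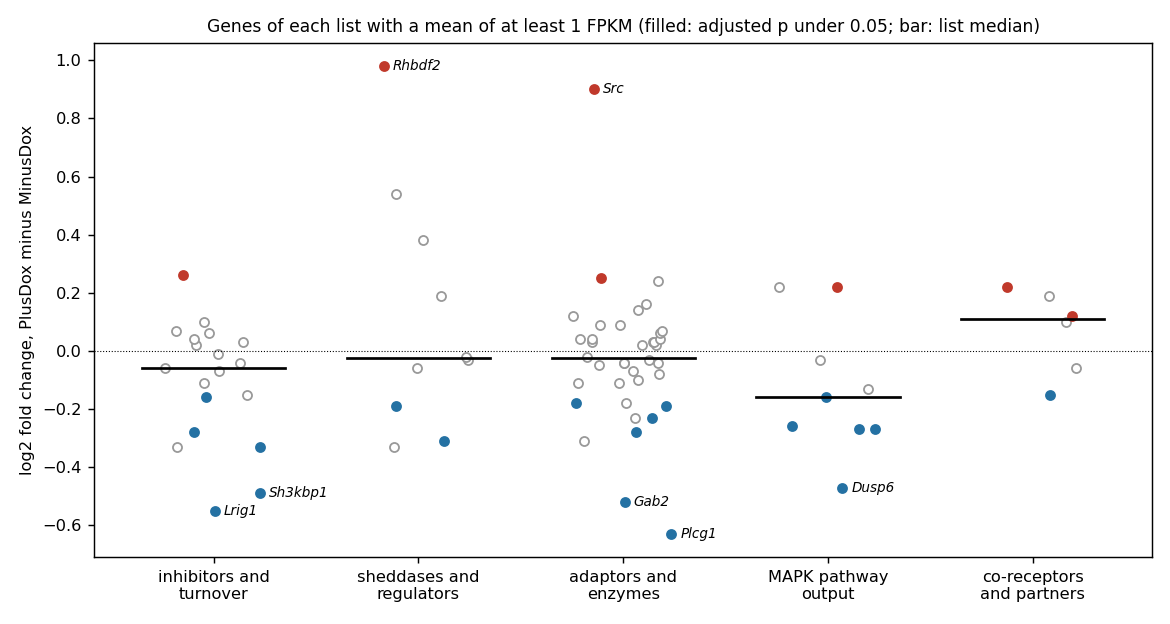
Log2 fold change, PlusDox minus MinusDox (y axis), of the genes at 1 FPKM or more in each of 5 lists; filled points passed the threshold, and bars are list medians. Rhbdf2 and Src stand highest, and Plcg1, Lrig1, Gab2, Sh3kbp1 and Dusp6 are the lowest of those that passed.

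Of 39 adaptors and signalling enzymes below the receptors, 38 were at 1 FPKM or more, and 2 of these rose and 6 fell (7.06% and 7.97% of all genes tested), with a median log2 fold change of -0.02 (0.004 over all genes tested). Src, a kinase that is activated by EGFR and phosphorylates it, was at 81.3, 91.8 and 79.9 FPKM in the MinusDox libraries, against 152, 159.6 and 158 FPKM in the PlusDox libraries. The groups were well apart (log2 fold change 0.90, SE 0.06, adjusted p = 2.0e-04, limma). Plcg1, the phospholipase that binds activated EGFR, fell from 47.3, 42.0 and 55.3 FPKM to 32.6, 27.9 and 32.5 FPKM (log2 fold change -0.63, adjusted p = 0.011, limma). The docking protein gene Gab2 (-0.52, adjusted p = 0.0092, limma) and the adaptor genes Shc1 (-0.28, adjusted p = 0.0062) and Crkl (-0.23, adjusted p = 0.019) fell as well, and Braf rose (0.25, adjusted p = 0.039). The call of Braf was kept only when PlusDox replicate 2 was left out and was lost without each other library (adjusted p up to 0.13), without the filter, without the trend, under quantile normalization and in the unmoderated model. That of Crkl was lost without MinusDox replicate 2 or any 1 PlusDox library (up to 0.075), and that of Plcg1 in the unmoderated model. Shc1 shares 28.3% of its longest transcript with another annotated gene.

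Of 10 genes whose transcription follows MAPK activity, 9 were at 1 FPKM or more, and 5 of them fell and 1 rose (7.97% and 7.06% of all genes tested), with a median log2 fold change of -0.16 (0.004 over all genes tested). Dusp6, a phosphatase of the MAPK pathway, was at 142, 139.6 and 145 FPKM in the MinusDox libraries, against 97.0, 106 and 107 FPKM in the PlusDox libraries. Every PlusDox library was lower (log2 fold change -0.47, SE 0.05, adjusted p = 9.6e-04, limma). Dusp4 (-0.27, adjusted p = 0.037, limma), Spry2 (-0.27, adjusted p = 0.015), Phlda1 (-0.26, adjusted p = 0.0090) and Ccnd1 (-0.16, adjusted p = 0.0041) fell too, the last named after its values were seen. Epha2 rose, from 131 ± 2.60 to 153 ± 4.37 FPKM (SD, n = 3 each; log2 fold change 0.22, adjusted p = 0.0086, limma). Etv4, Etv5 and Spry4 were not called, and Epha4 was listed at 0. The call of Dusp4 was kept only when MinusDox replicate 1 was left out (adjusted p up to 0.11 without the others), and that of Spry2 was lost without MinusDox replicate 3 or PlusDox replicate 1 or 3 (up to 0.056). In the unmoderated model Dusp4, Spry2 and Phlda1 were not called, nor was Dusp4 without the filter or Ccnd1 without the trend. Phlda1, Ccnd1 and Etv5 share 37.4%, 29.5% and 42.8% of their longest transcripts with other annotated genes, and reads in those stretches may be split between them.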

How the data were processed

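mRNA of 3 MinusDox and 3 PlusDox cultures was sequenced as single reads from stranded libraries. Per the paper's methods and the submitters' processing notes, the authors mapped reads with gSNAP (GRCm38.p6; the methods also name an FVB_NJ assembly), estimated expression with Cufflinks and deposited FPKM per gene and library. Versions are not given in the sources used here. Their group means, fold changes, p-values and q-values are also in the table and were not used.

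Of 43611 rows, 63 repeated identifiers were dropped, keeping the highest mean, and a placeholder in 6 places (4 genes) was treated as missing. limma 3.58.1 in R 4.3.3 (lmFit, eBayes with trend) was run on log2(FPKM + 0.1) with the group as its only term and Benjamini-Hochberg adjustment, and was tested on simulated data. With 3 against 3, a permutation test cannot go below 0.1.

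Named genes were the 10 members, their families, Mir200c, Zeb1, Zeb2, up to 4 called genes per direction with the highest absolute change from each list, and the 5 genes most like the member with the largest statistic. Cell type markers were named from their lists, and uncalled genes of the other lists were named after their values were seen. The members and lists were chosen with earlier results of these data known. Reads were estimated from transcript length minus 200 bases. Longest transcripts were compared with all GENCODE transcripts by BLAST 2.17.0 (95% identity, at least 50 bases), and sharing of 10% or more is given. Alternatives changed pseudocount, filter, scaling, model and libraries. Tables and plots were made in Python 3.11.15 (pandas 2.3.3, matplotlib 3.10.9).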

Additional observations from a re-analysis of the deposited data

How the results depend on the processing

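In 9 alternatives with all libraries, the number of genes called went from 1935 to between 1002 and 1992. The lowest came from one unmoderated linear model per gene on log2(FPKM + 1) without a filter. Leaving out each library in turn gave 1048 to 1359 calls, where fewer samples are fitted. Of the 10 members 5 were called. Limma without the trend called 3 (Erbb3, Errfi1 and Btc), and the unmoderated model also called 3 (Erbb3, Errfi1 and Hbegf). Leaving out 1 library left 1 or 2 (Errfi1, and Btc without MinusDox replicate 2 or PlusDox replicate 1). The other settings gave 4 or 5, apart from the replicate block below. No called member changed sign in the 15 alternatives, and 0 of the 5 uncalled members were called in any.

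With the replicate number as a block, 1337 genes and 2 members (Errfi1 and Btc) were called. Libraries with the same number, taken as deviations from the mean of their group, correlated across genes with r = 0.019 on average (-0.008 to 0.036), so the numbers were not taken to pair the libraries.

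Of 100 members and genes of the receptor, ligand and signalling lists with a value above 0, 33 were called, and 12 of these were called in all 15 alternatives. Over all genes, 15.0% were called with the filter and 7.84% without it. Among the 67 of these genes not called, 3 were called in some (Adam9, Araf and Rhbdl2, the last with 14.4% of its longest transcript shared with another annotated gene). Depth limits genes such as Ereg and Cblc, which rest on few reads. The causes of these differences were not tested.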

Other observations

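Of 8 co-receptor and partner genes of the ERBB receptors, 6 were at 1 FPKM or more, of which 2 rose and 1 fell (7.06% and 7.97% of all genes tested), with a median log2 fold change of 0.11 (0.004 over all genes tested). Axl, a receptor tyrosine kinase that can pair with EGFR, was at 556, 577 and 561 FPKM in the MinusDox libraries, against 597, 628 and 618 FPKM in the PlusDox libraries, far above any ERBB receptor. The groups did not overlap (log2 fold change 0.12, adjusted p = 0.034, limma). Met, the receptor of hepatocyte growth factor, rose from 66.3 ± 3.85 to 77.1 ± 3.29 FPKM (SD, n = 3 each; log2 fold change 0.22, adjusted p = 0.042, limma). Cd44, a hyaluronan receptor that can present HB-EGF, fell from 217 ± 2.03 to 196 ± 4.75 FPKM (SD, n = 3 each; log2 fold change -0.15, adjusted p = 0.021, limma). When libraries were left out singly, the call of Axl was kept only without PlusDox replicate 1 and that of Met only without MinusDox replicate 1 (adjusted p up to 0.11 and 0.13 without the others). That of Cd44 was lost without MinusDox replicate 1 or 2 or PlusDox replicate 1 or 3 (up to 0.071). All 3 calls were lost without the trend and in the unmoderated model, those of Axl and Met also without the filter, and that of Met under quantile normalization. Igf1r, Cd82 and Cd9, which shares 17.8% of its longest transcript with another annotated gene, were not called, and Muc1 and Muc4 were below 1 FPKM.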
